A study of Rattus norvegicus with 12 samples.

Results

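The immediate early genes followed here in left ventricles of infarcted rats were Egr1, Egr2, Myc, Fos, Fosb, Jun, Junb, Atf3, Nr4a1 and Ier2. They were picked by gene symbol from the deposited table of read counts per gene, in which they are 10 of 30560 genes, and the rule uses the symbols and no measured value. The animals were male Wistar rats, 7 weeks old at surgery, and each gave 1 library. Sham rats had the chest opened without a thread around the coronary artery, MI rats had the left anterior descending artery permanently tied to cause a myocardial infarction, and MI + UA rats had the same ligation and were then gavaged daily with urolithin A (UA), a metabolite that gut bacteria make from ellagitannins. Sham and MI rats were gavaged with the vehicle, 0.5% carboxymethylcellulose. The labels and the study's methods give 8 weeks of treatment from 24 hours after surgery, whereas its results text places the start a week after surgery and gives another dose, so neither start nor dose is settled here. The hearts were taken a day after the last dose, from overnight-fasted rats under isoflurane and buprenorphine, after arrest with potassium chloride. There were 4 rats per group: numbers 12, 17, 32 and 38 (Sham), 36, 57, 61 and 89 (MI) and 29, 58, 64 and 66 (MI + UA). Another MI + UA library of the study is not analysed here. Rat 66 carries the MI + UA label in the expression data but stands with the vehicle-treated MI rats in the study's echocardiography table. Estimates of the immediate early genes with it counted as MI are given further on, for MI + UA versus Sham only in part. That alternative was not run for the surrounding genes.

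Immediate early genes are transcribed within minutes of a stimulus from transcription factors that are already present in the cell, so that no new protein is needed. In muscle and vessel walls, stretch, ischaemia, hormones and growth factors reach them through MAP kinases, calcium and cyclic AMP, which act on serum response factor with its ETS partners, on CREB and on MEF2. Most encode transcription factors themselves (the FOS and JUN proteins pair to form AP-1), their mRNAs are short-lived, and in the heart they are known as early responders to pressure load and infarction.

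The members' promoters were searched for the sequences that these factors bind. RefSeq promoters on the GRCr8 assembly, 250 bases before to 50 bases after the start site, were matched for 6 of the 10 members (Egr1, Egr2, Fosb, Junb, Nr4a1 and Ier2). Egr1 held 2 CArG boxes, the binding sequence of serum response factor, whose first bases lay at -105 and -83 from the start site, and Egr2 held 1 at -83. Ier2 held none but carried the full cyclic AMP response element TGACGTCA at -66, the sequence CREB binds. The 3 promoters are shown 5′ to 3′ on the gene's strand because they carry the full motifs found among the members, with those motifs in capitals.
Egr1, chr18:26736828-26737127, plus strand: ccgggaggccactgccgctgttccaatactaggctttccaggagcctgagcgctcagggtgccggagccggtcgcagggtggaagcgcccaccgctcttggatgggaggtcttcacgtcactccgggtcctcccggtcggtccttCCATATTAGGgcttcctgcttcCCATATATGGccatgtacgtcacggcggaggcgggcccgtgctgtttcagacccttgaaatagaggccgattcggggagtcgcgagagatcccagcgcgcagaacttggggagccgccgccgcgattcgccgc
Egr2, chr20:21054392-21054691, minus strand: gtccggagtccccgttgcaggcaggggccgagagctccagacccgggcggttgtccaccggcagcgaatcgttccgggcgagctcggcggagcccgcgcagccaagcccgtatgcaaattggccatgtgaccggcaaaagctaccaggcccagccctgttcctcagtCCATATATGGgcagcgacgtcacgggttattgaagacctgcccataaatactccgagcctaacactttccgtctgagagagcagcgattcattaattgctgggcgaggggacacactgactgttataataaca
Ier2, chr19:40399123-40399422, plus strand: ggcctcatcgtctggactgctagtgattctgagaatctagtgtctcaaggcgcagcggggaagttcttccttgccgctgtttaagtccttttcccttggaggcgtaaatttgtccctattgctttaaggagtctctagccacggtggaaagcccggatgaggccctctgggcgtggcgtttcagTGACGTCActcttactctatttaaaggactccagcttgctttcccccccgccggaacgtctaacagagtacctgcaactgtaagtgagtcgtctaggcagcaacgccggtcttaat
A CArG box was found in 1.64% of the 33469 promoters of that table and TGACGTCA in 1.83%, on either strand. The shorter TGACGT, which lies within TGACGTCA and is held by 7.94% of promoters, occurred at 2 places in Egr1, at 1 in Egr2 and, inside the full element, at 2 overlapping places in Ier2. The AP-1 sequence TGANTCA, held by 7.33% of promoters, was in none of the 6. These matches describe letters in a window and not measured binding.

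The libraries held between 6228706 (Sham rat 32) and 19031695 (MI + UA rat 66) reads on genes, and the 4 Sham libraries held at most 8958828. Genes with at least 10 reads in total (18182 of 30560) were tested with edgeR's quasi-likelihood test, with all 3 groups in 1 fit and Benjamini-Hochberg adjustment over all of them, and a call is an adjusted p under 0.05. Levels are in CPM, the reads on a gene scaled to a common library size after trimmed-mean (TMM) normalisation. The tissue label held: 9 cardiomyocyte markers summed to 10968 to 17584 CPM per heart, against 0.804 to 2.20 CPM for the neutrophil markers. Mpo, one of the latter, was listed at 0 in every library, as were other genes named further on, and whether reads could be assigned to it was not tested. Marker levels differed with ligation. Cardiomyocyte markers summed to 14925 to 17584 CPM in Sham and 11403 to 13171 CPM in MI hearts (8 of 9 fell and Myh7 rose), fibroblast markers to 1124 to 1434 and 2185 to 3569 CPM (6 of 7 rose), and macrophage markers to 79.9 to 94.2 and 141 to 195 CPM (7 of 7 rose). Of the smooth muscle markers 3 of 5 rose (Acta2, Tagln and Cnn1), and of the endothelial markers 1 of 6 fell (Kdr). In MI + UA hearts the cardiomyocyte, fibroblast and macrophage sums ran from 10968 to 13900, from 2202 to 3681 and from 128 to 199 CPM, and no marker was called between MI + UA and MI. In whole ventricle, fewer cells of a type and less RNA per cell cannot be told apart, and the part of cell makeup in the results on immediate early genes was not tested.

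Junb, which encodes a JUN protein that pairs with FOS proteins, was listed at 0 in all 12 libraries. A count of 0 allows up to 3 reads per library, or 0.158 to 0.482 CPM before TMM scaling, for counting error only and provided that its reads could be assigned to it, which was not tested, and 7973 genes of the table (26.1%) were likewise at 0 throughout. The other 9 members had reads in every library and passed the filter on low counts.

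Of the 9 members, 2 rose with infarction, Egr1 to 2.04 times and Myc to 2.87 times the Sham level. A share of 11.4% of all genes tested was called in MI versus Sham. The median log2 fold change of the 9 members was 0.37, beside 0.03 over all genes tested, and 8 of the 9 estimates were above 0, as were 53.0% of all genes. Levels did not overlap between the 4 MI and the 4 Sham hearts for 3 members (Egr1, Egr2 and Myc), where 15.7% of all genes tested did not overlap. With rat 66 counted as MI, log2 fold changes of MI versus Sham were 0.99 for Egr1, 1.12 for Egr2 and 1.38 for Myc. In the same fit Fosb was at 0.44 and Ier2 at 0.11. The plot of levels by heart shows all 9 members.

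**Figure D1:**
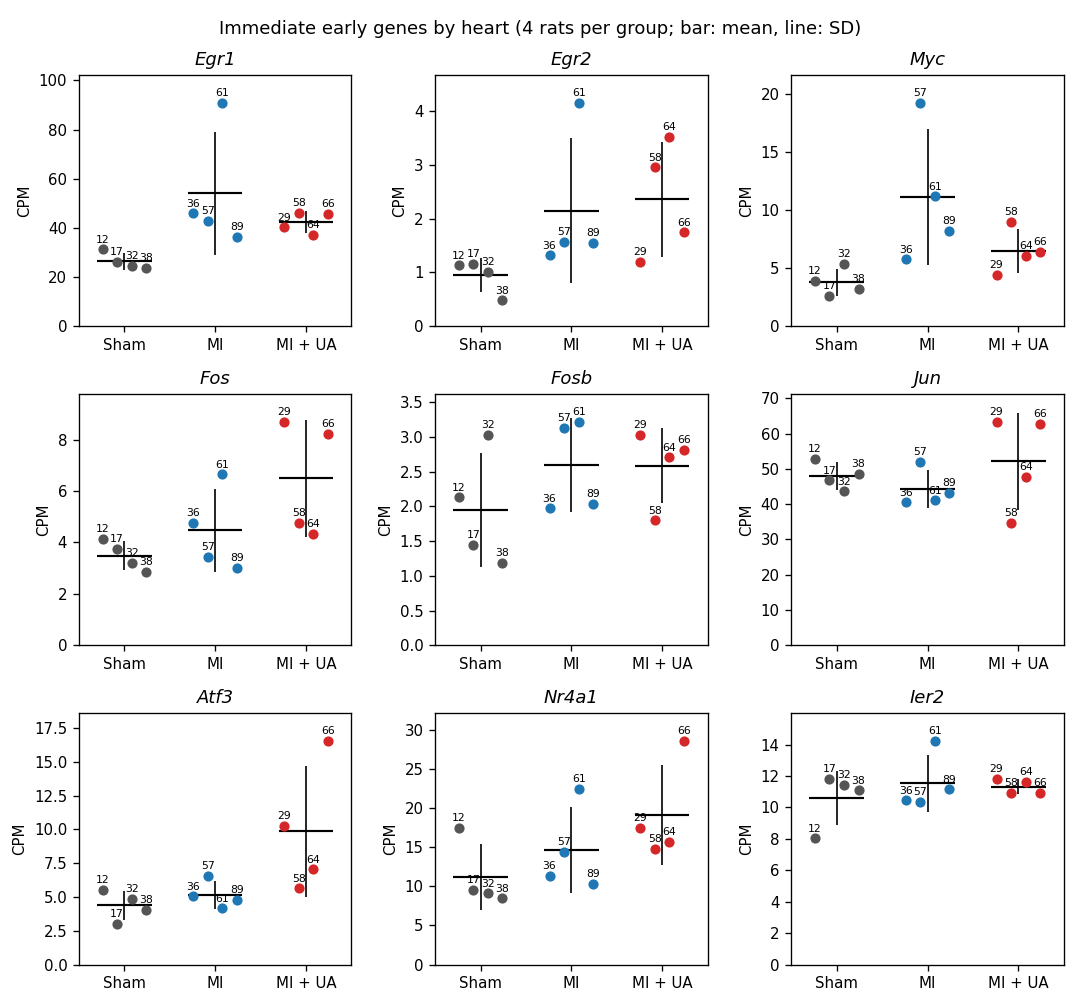
Levels of the 9 detected immediate early genes in CPM (vertical axis, linear, from 0) in each of 12 hearts, by group, with rat numbers; the horizontal bar is the mean and the vertical line the SD of 4 hearts. Every MI heart lies above every Sham heart for Egr1, Egr2 and Myc, MI rat 61 stands highest for Egr1 and Egr2, and MI + UA rat 66 stands highest for Atf3 and Nr4a1.

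Egr1 encodes a zinc-finger transcription factor induced by stretch and growth factors, and its promoter is the one shown above with 2 CArG boxes. It stood at 31.2, 26.1, 24.4 and 23.6 CPM in Sham rats 12, 17, 32 and 38 and at 45.9, 42.8, 90.9 and 36.3 CPM in MI rats 36, 57, 61 and 89. The lowest MI heart was thus above the highest Sham heart, and rat 61 was far above the other MI hearts. The means were 26.3 ± 3.43 CPM in Sham and 54.0 ± 24.9 CPM in MI (SD, n = 4 each). The log2 fold change was 1.03 (SE 0.20, 95% interval 0.61 to 1.46, edgeR adjusted p = 0.00197), a 2.04-fold higher level. Without rat 61 the log2 fold change was 0.66, with an edgeR adjusted p of 0.00187.

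Egr2, a relative of Egr1 best known from myelinating Schwann cells, was counted at only 4 to 9 reads per Sham library and 10 to 40 per MI library. Its levels were 1.13, 1.15, 1.01 and 0.477 CPM in Sham and 1.32, 1.57, 4.15 and 1.55 CPM in MI hearts, in the same order of rats. The groups did not overlap, but the margin between the highest Sham and the lowest MI heart was small and rat 61 was again the highest. The estimate, 1.18 on the log2 scale (SE 0.47), did not pass after adjustment (edgeR adjusted p = 0.117), and it was 0.65 without rat 61.

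Myc encodes the growth-promoting transcription factor that binds DNA with MAX. It stood at 3.89, 2.60, 5.39 and 3.22 CPM in Sham rats 12, 17, 32 and 38 and at 5.78, 19.3, 11.2 and 8.23 CPM in MI rats 36, 57, 61 and 89. Here rat 57 was the highest, and rat 36 was only just above the highest Sham heart. Means were 3.77 ± 1.20 and 11.1 ± 5.88 CPM (SD, n = 4 each), and the log2 fold change was 1.52 (SE 0.32, 95% interval 0.85 to 2.19, edgeR adjusted p = 0.00314), or 2.87-fold. Without rat 57 it was 1.16, and the calls of Egr1 and Myc were kept in each of 20 other fits, including those that left out any single rat.

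Of the members that form or join AP-1, Fos, Fosb, Jun and Atf3 did not pass the test between MI and Sham. Fos, the best known of them, stood at 4.14, 3.75, 3.20 and 2.86 CPM in Sham and 4.75, 3.45, 6.64 and 3.01 CPM in MI hearts, so that the groups overlapped. Its log2 fold change was 0.36 (SE 0.28, edgeR adjusted p = 0.487), and it was 0.12 without MI rat 61 and 0.61 with rat 66 counted as an MI rat (adjusted p = 0.213). Fosb, whose product takes the place of FOS in AP-1, ranged from 1.19 to 3.03 CPM in Sham and from 1.97 to 3.22 CPM in MI hearts, a log2 fold change of 0.40 (SE 0.31), which was 0.22 without Sham rat 38 and 0.67 without Sham rat 32. Jun, the main partner of FOS, was the steadiest of the 3, at 43.6 to 52.9 CPM in Sham and 40.5 to 52.1 CPM in MI hearts. It was the member with an estimate below 0, -0.13 on the log2 scale (95% interval -0.43 to 0.17), and -0.0022 with rat 66 counted as MI. Atf3, a stress-induced factor that can pair with JUN, ranged from 3.03 to 5.52 CPM in Sham and from 4.15 to 6.59 CPM in MI hearts. Its log2 fold change was 0.21 (95% interval -0.40 to 0.83), or 0.076 without Sham rat 17 and 0.35 without Sham rat 12. With rat 66 counted as an MI rat, that estimate was 0.81 and still missed the threshold (edgeR adjusted p = 0.168).

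Nr4a1, an orphan nuclear receptor, and Ier2, a short nuclear protein of the early response, did not pass either. Nr4a1 stood at 17.4, 9.53, 9.09 and 8.47 CPM in Sham and 11.3, 14.4, 22.4 and 10.3 CPM in MI hearts. Sham rat 12 lay above 3 of the 4 MI hearts, and MI rat 61 above all others. The log2 fold change was 0.37 (SE 0.26, edgeR adjusted p = 0.435), and it ran from 0.080 without rat 61 to 0.68 without rat 12, and was 0.65 with rat 66 counted as MI, none of them called. Ier2, whose promoter carries the full cyclic AMP response element, ranged from 8.03 to 11.8 CPM in Sham and from 10.3 to 14.2 CPM in MI hearts. Its log2 fold change of 0.13 had a 95% interval of -0.17 to 0.43. It was 0.013 without Sham rat 12, 0.016 without MI rat 61 and 0.19 without Sham rat 17.

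Whether UA altered these genes in infarcted hearts was asked by comparing MI + UA with MI, and no member was called by edgeR or by DESeq2. That held for all genes as well, with 0% of the 18182 tested called by edgeR and 0 by DESeq2. Without adjustment, 3.79% of all genes had an edgeR p under 0.05, and 3 of the 9 members did (Fos, Atf3 and Myc). That count of members was 0 with rat 66 counted as MI, 0 without both of the deepest libraries (rats 29 and 66), 1 without rat 29 alone and 2 without rat 66 alone or after thinning. It was 4 without MI rat 61 or MI + UA rat 58 and 6 without a filter on low counts. Levels overlapped for every member, where 2.34% of all genes tested did not overlap. The median log2 fold change of the members was 0.06, beside 0.0047 over all genes, with 6 estimates above and 3 below 0.

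Atf3 had the largest difference between treated and untreated infarcted hearts. It was counted at 10.3, 5.65, 7.04 and 16.5 CPM in MI + UA rats 29, 58, 64 and 66, against 5.04, 6.59, 4.15 and 4.81 CPM in MI rats 36, 57, 61 and 89. The treated heart was the higher in 15 of the 16 pairs, and rats 29 and 66 stood well above all others. The log2 fold change was 1.01 (SE 0.26, 95% interval 0.47 to 1.55), with an edgeR p of 0.000844 before and 0.9997 after adjustment over all genes. Its adjusted p ran from 0.125 to 1 over the other fits.

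The result on Atf3 turned on rat 66, whose group the sources give differently. With that rat counted as MI the log2 fold change was 0.04, and with it left out the value was 0.63. Rats 29 and 66 also had the deepest libraries, 17382116 and 19031695 reads on genes against at most 12743184 in any other. Across 12 hearts, deviations of Atf3 from the group means correlated with depth at r = 0.59 and rho = 0.49 (permutation p = 0.211 and 0.234, adjusted p = 0.385 and 0.420), with r = 0.35 without the 2 hearts farthest from the median depth. After every library was thinned in a single random draw to the depth of the shallowest, the log2 fold change of Atf3 was 0.85. With both deep libraries left out it was 0.32. Values after thinning carry the noise of that draw, and the draw was not repeated.

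Fos was higher in the same hearts, at 8.68, 4.75, 4.33 and 8.22 CPM in MI + UA rats 29, 58, 64 and 66. Its log2 fold change against MI was 0.59 (SE 0.25, 95% interval 0.06 to 1.11, edgeR adjusted p = 0.9997). It was 0.32 after thinning, 0.21 with rat 66 counted as MI and 0.01 without both deep libraries. In MI versus Sham the same draw gave Fos 0.49, beside 0.36 in the main fit. Jun stood at 63.3 and 62.8 CPM in rats 29 and 66 and at 34.7 and 47.8 CPM in rats 58 and 64, so that the treated group held both the highest and the lowest of the 12 hearts. Its log2 fold change was 0.26 (SE 0.14, 95% interval -0.034 to 0.55), -0.099 without both deep libraries, 0.033 with rat 66 counted as MI and 0.41 without rat 58. Rats 58 and 64 were thus within the range of the MI hearts for Fos, and rat 58 below it for Jun.

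Myc and Egr1, the members that rose with infarction, had estimates below 0 in treated against untreated infarcted hearts. Myc was at 4.46, 8.99, 6.09 and 6.41 CPM in MI + UA rats 29, 58, 64 and 66, a mean of 6.49 ± 1.88 CPM (SD, n = 4). Its log2 fold change was -0.75 (SE 0.29, 95% interval -1.35 to -0.16, edgeR adjusted p = 0.9997), and the treated heart was higher in 4 of 16 pairs. The value was -0.39 when MI rat 57 was left out, -0.50 without both deep libraries and -0.62 with rat 66 counted as MI. Egr1 was at 40.2, 46.2, 37.2 and 45.7 CPM, with a mean of 42.3 ± 4.39 CPM, and its log2 fold change was -0.35 (SE 0.19, 95% interval -0.75 to 0.054). Without MI rat 61 that became 0.02, and with rat 66 counted as MI it was -0.34. The MI hearts enter both this comparison and the one with Sham, so a high MI heart raises the one estimate and lowers the other.

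Of the remaining members, Nr4a1 stood at 17.4, 14.8, 15.7 and 28.5 CPM in MI + UA hearts and differed from MI by 0.43 on the log2 scale (SE 0.24), by -0.13 with rat 66 counted as MI or by 0.067 without both deep libraries. With single rats left out it ran from 0.15 (without rat 66) to 0.71 (without MI rat 61). Fosb ranged from 1.80 to 3.03 CPM (0.06, SE 0.28), Egr2 from 1.20 to 3.52 CPM (0.05, SE 0.39, or 0.24 with rat 66 counted as MI, 0.59 without MI rat 61 and 0.60 without both deep libraries) and Ier2 from 10.9 to 11.8 CPM (-0.03, SE 0.14). For Ier2 the 95% interval ran from -0.32 to 0.26 on the log2 scale. For Egr2 it ran from -0.77 to 0.88, the widest interval of the members.

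**Figure D2:**
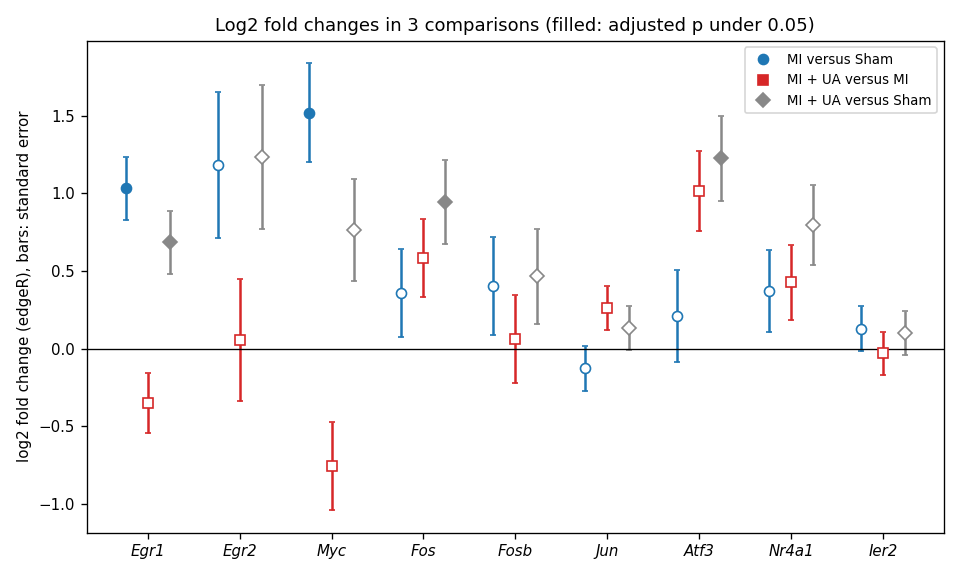
Log2 fold changes (vertical axis, edgeR) of the 9 detected immediate early genes in the 3 comparisons of groups; bars are standard errors and filled symbols have an adjusted p under 0.05. Egr1 and Myc are called in MI versus Sham, Fos, Egr1 and Atf3 in MI + UA versus Sham, and none in MI + UA versus MI.

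Against Sham, MI + UA hearts had all 9 estimates above 0, with a median log2 fold change of 0.77 beside 0.02 over all genes. Fos, Egr1 and Atf3 rose (3 of 9 members), where 9.44% of all genes tested were called. Levels did not overlap with Sham for 4 members (Fos, Egr1, Egr2 and Atf3), where 14.3% of all genes did not. The log2 fold change was 1.23 for Atf3 (SE 0.28, edgeR adjusted p = 0.00647), 0.95 for Fos (SE 0.27, adjusted p = 0.0294) and 0.68 for Egr1 (SE 0.20, adjusted p = 0.0379). Nr4a1 at 0.80 (adjusted p = 0.0548, or 0.52 with rat 66 counted as MI), Egr2 at 1.24 (adjusted p = 0.106) and Myc at 0.77 (adjusted p = 0.168) missed the threshold.

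These calls depended on single hearts to different degrees. Atf3 was called whichever single rat was left out (log2 fold change 0.84 to 1.40), but not with rat 66 counted as MI (0.85, edgeR adjusted p = 0.208) or without both deep libraries (0.54, adjusted p = 0.232). Leaving out Sham rat 17, 32 or 38 or MI + UA rat 29 or 66 ended the calls of Fos and Egr1 (edgeR adjusted p 0.0521 to 0.117), leaving 1 member called. With any single rat left out, the log2 fold change ran from 0.79 to 1.08 for Fos and from 0.63 to 0.78 for Egr1. Over the other alternatives Egr1 ran from 0.64 to 0.69. Egr1 was also lost without MI + UA rat 58 (adjusted p = 0.0880) and by DESeq2 (adjusted p = 0.0822), and Fos after thinning to equal depth (0.81, edgeR adjusted p = 0.134). Nr4a1 gained a call without Sham rat 12 (1.11, edgeR adjusted p = 0.0121), MI rat 61 or 89 or MI + UA rat 58, after thinning (0.95, adjusted p = 0.0199), with the compared groups alone (adjusted p = 0.0350) and without a filter on low counts (adjusted p = 0.00648). With rat 66 counted as MI, 0 of the 9 members were called by edgeR and 4 had an unadjusted p under 0.05, while 10.1% of all genes were called in that fit. Without both deep libraries 1 was called, Egr2 (log2 fold change 1.79, edgeR adjusted p = 0.0214), and again 10.1% of all genes were called.

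The spread between hearts of a group was wider than that of the median gene for most members. Their median biological coefficient of variation, edgeR's estimate of the spread between hearts beyond counting error, was 0.228, beside 0.165 over all genes tested. Of the 9 members, 7 lay above that all-gene median. Over genes with an average log2 CPM of at least 1, where 8 of the 9 members stood, the median was 0.122. Egr2 had the highest at 0.348 and Ier2 the lowest at 0.117, with Jun at 0.142. Ier2 differed by only 1.08 times between the highest and lowest MI + UA heart, whereas Atf3 differed by 2.93 times there and Myc by 3.34 times among MI hearts.

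Some hearts were high or low for several members. MI rat 61 had the highest level of all 12 hearts for 4 members and the highest of its group for 6. Sham rat 12 was the highest of its group for 5, and Sham rat 38 had the lowest of all 12 for 5. The shares of all genes for which these hearts were highest or lowest were not worked out. MI + UA rats 29 and 66 had the highest of all 12 for 2 members each, and MI rat 57 for 1. The mean log2 CPM over the 9 members ran from 2.41 to 2.88 in Sham, from 2.92 to 3.60 in MI and from 3.17 to 3.56 in MI + UA hearts. Rat 61 also had the lowest cardiomyocyte sum of the MI group and the highest macrophage sum, 11403 and 195 CPM. Whether cell makeup had a part in its high levels was not tested.

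**Figure D3:**
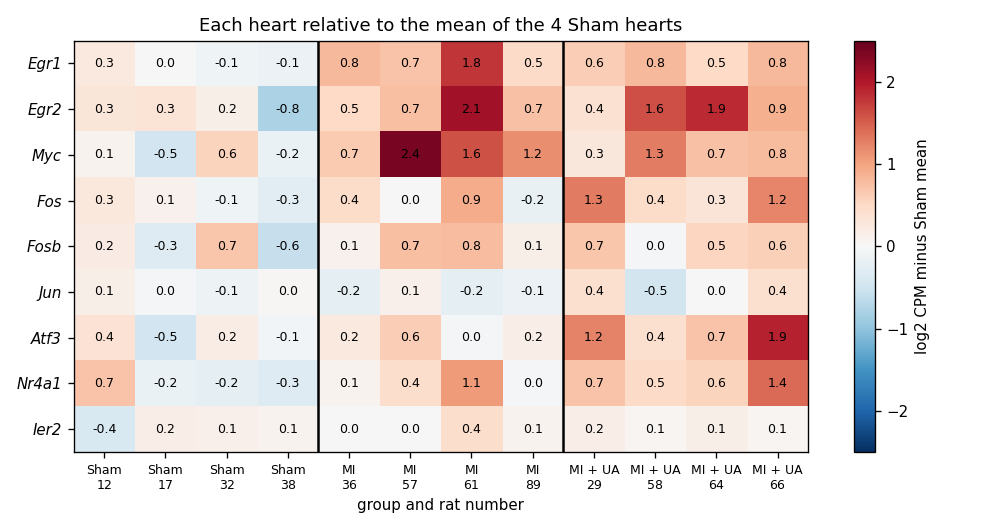
Level of each of 9 immediate early genes (vertical axis) in each of 12 hearts (horizontal axis, by group and rat) as log2 CPM minus the mean of the 4 Sham hearts; red is above and blue below that mean, and the number in each cell is the difference. Rat 61 is 1.8 above for Egr1 and 2.1 above for Egr2, rat 57 is 2.4 above for Myc and rat 66 is 1.9 above for Atf3, while the cells of Jun and Ier2 stay within 0.5 of it in every heart.

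Within groups the members did not move as 1 block. Over 36 pairs of members, the correlation of their deviations from the group means across 12 hearts was positive for 26 and negative for 10, with a median Pearson r of 0.28. The strongest was Jun with Atf3 (r = 0.79, rho = 0.61, permutation p = 0.0309 for r and 0.0921 for rho, adjusted p = 0.278 and 0.447). It was 0.78 without the 2 hearts farthest from the median of Jun. Egr1, Fos and Nr4a1 were the next strongest among themselves (r = 0.75 for Egr1 with Nr4a1, 0.71 for Fos with Nr4a1 and 0.69 for Fos with Egr1), each with an adjusted permutation p of 0.211 for r. Their Spearman rho was 0.61, 0.70 and 0.69 in that order (permutation p = 0.0571, 0.0235 and 0.0204, adjusted p = 0.447, 0.423 and 0.423), and their r was 0.64, 0.61 and 0.55 without the 2 hearts farthest from the median. Jun with Egr2 had the lowest r at -0.49 (rho = -0.55, adjusted permutation p = 0.488 and 0.447), and no pair passed after Benjamini-Hochberg adjustment over the 36. Correlations of the members' deviations with the log2 number of reads on genes had both signs, from r = -0.64 for Myc (rho = -0.64) and -0.63 for Egr2 (rho = -0.72) to 0.58 for Fos (rho = 0.57), 0.59 for Atf3 (rho = 0.49) and 0.63 for Jun (rho = 0.58). None of the 9 passed after adjustment, the smallest adjusted permutation p being 0.141 for r (Myc) and 0.326 for rho (Egr2 and Myc). Without the 2 hearts farthest from the median depth, r was -0.69, -0.51, 0.36, 0.35 and 0.42 in the same order of genes.

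Around the members, 81 of 86 listed symbols of the same pathway could be tested. In MI versus Sham 12 of them rose and 1 fell, or 16% beside 11.4% of all genes, at a median of 0.15 on the log2 scale. In MI + UA versus MI none was called by edgeR and 8 of 81 had an unadjusted p under 0.05, where 3.79% of all genes did. In MI + UA versus Sham 8 rose and 1 fell, or 11.1% beside 9.44% of all genes. The same shares of all genes stand behind the counts by list. Listed at 0 in all libraries were Egr4, the kinase gene Mapk3 and the CREB coactivator gene Crtc2, and 1 of 2 entries of Mafk. Batf2 and the phosphatase gene Dusp1 are not analysed here.

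Among relatives of the members, Egr3 had estimates above 0 against Sham, as Egr1 and Egr2 did. It stood at 1.26 ± 0.698 CPM in Sham, 3.26 ± 1.41 in MI and 4.34 ± 0.725 in MI + UA hearts (SD, n = 4 each), with log2 fold changes of 1.43 (edgeR adjusted p = 0.0146) and 1.83 (adjusted p = 0.00237) against Sham. It was the only call among 5 tested relatives of the EGR and NR4A factors, where Nab2, a corepressor of EGR factors, had 0.55 (adjusted p = 0.250) and the receptor gene Nr4a3 had 0.41 (adjusted p = 0.662) in MI versus Sham. Of 11 AP-1 relatives, 2 rose in MI: Fosl2 by 0.49 (edgeR adjusted p = 0.0105) and Maff, which encodes a small MAF protein, by 0.62 (adjusted p = 0.0340). Fosl2, which encodes a FOS-related protein, was at 42.7 ± 0.975 CPM in Sham and 60.4 ± 13.8 CPM in MI hearts (SD, n = 4 each), while the JUN relative Jund differed by -0.09 on the log2 scale (adjusted p = 0.746). None of 9 genes of the MYC network was called in any comparison, among them Mnt (0.34, edgeR adjusted p = 0.114) and Mxi1 (-0.25, adjusted p = 0.116), which encode repressors that bind MAX. Among 15 other induced regulators 1 rose, Klf4 by 0.38 (edgeR adjusted p = 0.0419), and Cebpd missed at 0.92 (adjusted p = 0.0891).

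Of 15 tested feedback and mRNA decay genes, which damp the early response, 5 rose in MI hearts and 1 fell. Errfi1, an inhibitor of the EGF receptor, had a log2 fold change of 1.00 (edgeR adjusted p = 0.0156), Nfkbia, the inhibitor of NF-kB, of 0.82 (adjusted p = 0.0391) and Dusp6, a phosphatase of ERK kinases, of 0.69 (adjusted p = 0.0241). Zfp36 and Zfp36l2, whose products speed the decay of AU-rich mRNAs, rose by 0.46 (edgeR adjusted p = 0.0388) and 0.42 (adjusted p = 0.0122). Gadd45b, a stress-induced gene, missed the threshold at 0.79 (edgeR adjusted p = 0.0755). Dusp5, another ERK phosphatase, fell by 0.95 (edgeR adjusted p = 0.0189), from 32.5 ± 11.5 CPM in Sham to 16.5 ± 7.60 CPM in MI hearts (SD, n = 4 each). In MI + UA versus Sham, Dusp5 fell by 1.00 (edgeR adjusted p = 0.0156), and Zfp36l1 (0.34, adjusted p = 0.0226) and Zfp36l2 (0.41, adjusted p = 0.0180) rose.

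Of 12 secreted factors, enzymes and kinases induced downstream, 3 rose in MI hearts, and Ptgs2 and Thbs1 had the largest estimates of the 81 genes in that comparison. Ptgs2, which encodes the inducible cyclooxygenase, went from 1.46 ± 0.320 CPM in Sham to 7.33 ± 1.39 CPM in MI hearts (log2 fold change 2.32, edgeR adjusted p = 1.35e-06). Thbs1, a matrix glycoprotein, went from 20.2 ± 4.92 to 83.2 ± 28.5 CPM (2.04, adjusted p = 6.51e-06), and Ccl2, a monocyte chemokine, from 2.50 ± 0.412 to 4.82 ± 2.39 CPM (1.00, adjusted p = 0.0488). Ccn1, a matrix-associated signalling protein, missed the threshold at 0.79 (edgeR adjusted p = 0.0782). In MI + UA hearts Ptgs2 was at 6.73 ± 0.534, Thbs1 at 55.4 ± 17.2 and Ccl2 at 6.53 ± 1.73 CPM (SD, n = 4 each), all 3 called against Sham. None of 14 upstream kinases and factors was called in any comparison, with medians of -0.03 in MI versus Sham and 0.0072 in MI + UA versus MI. The largest of them in MI versus Sham was that of the p38 kinase gene Mapk14, -0.24 (edgeR adjusted p = 0.153).

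Between MI + UA and MI the surrounding genes stood as the members did, with estimates but no call. Of the 81, 34 lay above 0, where 51% of all genes did. Of the 8 with an unadjusted edgeR p under 0.05, 6 lay below and 2 above 0. Apold1, an endothelial early response gene, differed by -0.73 on the log2 scale (SE 0.23) and Nfkbia by -0.92 (SE 0.25). Zfp36 at -0.41, Thbs1 at -0.60 and Trib1 at -0.49 were likewise below MI. Those above 0 were Rps6ka5, a kinase gene, at 0.25 (SE 0.10) and Klf10, a zinc-finger factor gene named after its value was seen, at 0.26 (SE 0.10). Nr4a3 stood at 0.67 (SE 0.41), and each gene named here had an edgeR adjusted p of 0.9997.

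**Figure D4:**
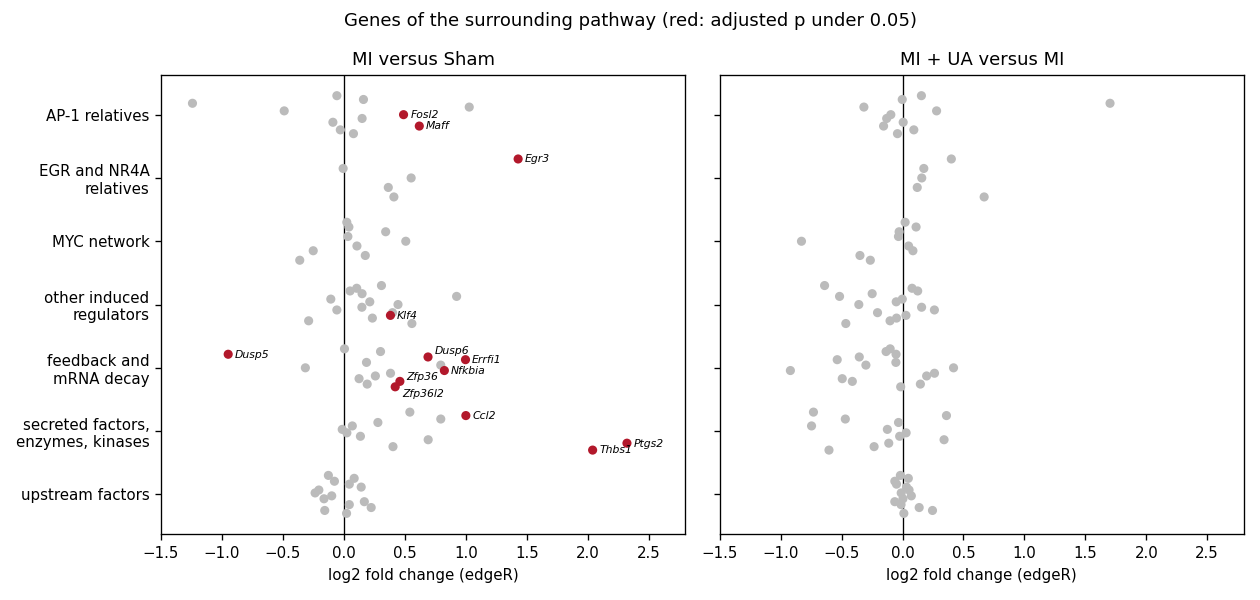
Log2 fold changes (horizontal axis, edgeR) of 81 genes of the surrounding pathway in 7 lists (vertical axis), MI versus Sham on the left and MI + UA versus MI on the right; red points have an adjusted p under 0.05. On the left 12 genes are called above 0 and Dusp5 below it, and on the right none is.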

How the data were processed

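RNA came from 20 µm sections of formalin-fixed, paraffin-embedded left ventricular blocks. Libraries were rRNA-depleted and strand-specific, although the sample labels name polyA RNA. Per the labels and the study's methods, the authors aligned read pairs with STAR 2.6.1c to mRatBN7.2 (Ensembl release 108) and counted reads with HTSeq; the strand setting of the counting is not given in the sources used here, so reads of overlapping antisense genes cannot be told apart. The deposited values are raw read counts for 12 libraries, 1 per rat. The counter's 5 summary lines were left out. Reads on no gene were 42.5% to 50.2% of the reads that were on genes, on no gene or ambiguous between genes. Mitochondrially encoded genes took 50.2% to 58.6% of reads on genes.

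Genes with fewer than 10 reads in total were left out. All 12 rats were fitted with group as factor in edgeR 4.0.16 (R 4.3.3, TMM, quasi-likelihood test, 9 residual degrees of freedom), with Benjamini-Hochberg adjustment over 18182 genes; the script was tested on simulated data. Correlations used deviations of log2 CPM (prior count 1) from group means, with 13824 exact permutations within groups, two-sided. The members and all lists were chosen with earlier results of these data known, so no count over a list is independent support for its direction. Besides the members, genes of the pathway lists were named if their adjusted p was under 0.05 in any comparison, and otherwise up to 2 per list and comparison with the largest estimates at an average log2 CPM of at least 1. Alternatives were DESeq2 1.42.0 (the study's tool), the compared groups alone, other filters and scalings, rat 66 counted as MI and each rat left out. Thinning to equal depth (a single random draw) and leaving out both deep libraries were added after the data were seen. Sequences are from RefSeq (GRCr8) and were matched by symbol.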

Additional observations from a re-analysis of the deposited data

Results flagged for a closer look

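Single hearts that stood apart were sought in 54 sets of 4 hearts (log2 CPM of the 9 members, and library measures, by group). A heart was marked when its gap to the nearest other, divided by the range of the set, exceeded Dixon's 95% critical value for 4 values. Ratios of members were taken on log2 CPM, so they do not follow from the CPM printed beside them. Chance alone marks about 1 in 20 sets, or 2.7 here, and 5 were marked. MI rat 61 stood apart with the highest Egr2 of its group (ratio 0.851, 4.15 CPM against 1.32 to 1.57 CPM). Sham rat 38 stood apart with the lowest Egr2 (ratio 0.842, 0.477 CPM against 1.01 to 1.15 CPM, from 4 reads). Sham rat 12 stood apart in both directions, with the highest Nr4a1 (ratio 0.837, 17.4 CPM against 8.47 to 9.53 CPM) and the lowest Ier2 (ratio 0.832, 8.03 CPM against 11.1 to 11.8 CPM) of its group. In MI + UA, rat 58 had the highest share of reads on no gene (ratio 0.892, 50.2% against 45.0% to 45.6%).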

How the results depend on the processing

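Between MI and Sham, the count of 2 members called was the same in all 20 alternatives, and between MI + UA and MI it stayed at 0 in all 21. Between MI + UA and Sham, where 3 members were called, the count was 0 with rat 66 counted as MI, 1 without both deep libraries, and 1 to 4 when single rats were left out; the remaining alternatives gave 2 to 4. Single estimates that changed sign were small and uncalled. With rat 66 counted as MI, log2 fold changes of MI + UA versus MI were -0.016 for Fosb, -0.13 for Nr4a1 and 0.010 for Ier2. After thinning, Fosb was at -0.13 in MI + UA versus MI and Ier2 at -0.022 in MI + UA versus Sham. Without both deep libraries, Fosb was at -0.18 and Jun at -0.099 in MI + UA versus MI, and Jun at -0.21 in MI + UA versus Sham. With single rats left out, MI + UA versus MI ran from -0.058 to 0.20 for Fosb, from -0.19 to 0.59 for Egr2, from -0.50 to 0.025 for Egr1 and from -0.079 to 0.085 for Ier2, and MI + UA versus Sham from -0.015 to 0.16 for Ier2. For the called genes of MI versus Sham the range was 0.66 to 1.19 for Egr1 and 1.16 to 1.75 for Myc. The cause was not tested. No paired analysis was possible because each heart came from another animal, so that groups share no rats. Egr2 had 4 to 9 and Fosb 10 to 18 reads per Sham library, and counting error and spread between hearts were not separated as limits on their estimates.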

Other observations

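Among 10688 genes outside the member list with a symbol and an average log2 CPM of at least 1, a few rose and fell across hearts much as the members did. Likeness was the Pearson r, over 12 hearts, between a gene's deviations of log2 CPM from the group means and the mean standardised deviation of the 8 members above the same level. The 5 highest were Tex30 (r = 0.90), Pprc1 (0.89), Rhbdd1 (0.87), Snrk (0.85) and Zbtb4 (0.85). The 12 points share the depth of their libraries, and the 5 genes are the extreme of 10688, so these values are a description of these hearts.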
